A study of Mus musculus with 7 samples.

Results

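The baseline described here is that of the 3 tumors labelled control, out of 7 mouse tumors that the study calls Group 3 medulloblastomas (G3 MBs) and whose RNA was sequenced. They were chosen by their label alone, which gives the control tumors no treatment, and the remaining 4 tumors, labelled WDR11OE, were made with a lentivirus meant to enforce human WDR11 and enter only the check of the labels. All tumors grew from tumorsphere line # 19568, which came from granule neuron progenitors (GNPs) of Trp53-/-; Cdkn2c-/- mice aged 7 days. The GNPs had been infected with an MSCV retrovirus encoding Myc-IRES-GFP and had formed tumors in CD1 nu/nu hosts. The tumorspheres were then infected with a lentivirus, which the study's methods describe as the empty pCDH-EF1-MCS-T2A-copGFP vector for the controls, and were transplanted in Matrigel into the cortex of CD1 nu/nu mice, for which the methods give an age of 6 to 8 weeks in the making of the model. Chunks of the tumors were frozen when the mice became moribund. The baseline is therefore that of 1 line, driven by 1 retroviral Myc construct and lacking 2 tumor suppressors, in an immunodeficient host and outside the cerebellum. The tumors were numbered 1 to 3 by order only, and nothing in the labels pairs them with tumors of the other group.

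MB is a tumor of the cerebellum and hindbrain that occurs in humans as WNT, SHH, Group 3 and Group 4 subgroups. Human Group 3 tumors often have high MYC and express genes of photoreceptors, such as CRX and NRL, with the homeobox factor OTX2. SHH tumors arise from GNPs, which divide in the young cerebellum in response to Sonic hedgehog, and express the targets of that pathway. MYC is a transcription factor that pairs with MAX and raises the genes of ribosome production, nucleotide synthesis and cell division.

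Reads were counted per gene, and the totals were 35463784, 41397427 and 33417175 counts in tumors 1, 2 and 3. Levels are given as CPM, the share of a library's counts scaled to 1e6, and levels of different genes were compared only after division by the length of all exons of a gene in kb. A gene at 3 counts stood at between 0.0715 and 0.0919 CPM, and this floor covers counting error only. Of 34592 rows in the table, 13726 had at least 1 CPM in each of the 3 tumors and are called expressed, and 11001 had no count in any of them. Each value is from 1 library per tumor, so a mean ± SD has n = 3 throughout and a difference between single tumors has no replicate and no test.

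The vector gene was looked at first, since it bears on the labels. A row for human WDR11 held 73, 92 and 102 counts in the tumors labelled control, or 2.03, 2.19 and 3.12 CPM. In the 4 tumors labelled WDR11OE it stood at 4.38, 2.11, 3.05 and 0.624 CPM, so the 2 groups overlapped and this row did not separate the labels. Whether reads of mouse Wdr11 were counted in this row was not tested, so its counts are not read as human transcript. Mouse Wdr11, a WD repeat protein, stood at 58.8, 58.3 and 59.2 CPM in the control tumors, with a coefficient of variation (CV) of 0.786%, and at between 61.0 and 68.9 CPM in the tumors labelled WDR11OE. For tumors of this line that carried the WDR11 vector, the paper reported increased WDR11 transcript by qRT-PCR. It also reported WDR11 protein by immunofluorescence in tumorspheres derived from such tumors. Those assays are other measures than the counts used here. The names of the groups follow the labels.

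Small structural RNAs took the largest places in the table, ahead of every mRNA. The first 2 rows, AC157822.1 and AC099934.1, held between 7.05% and 8.89% of all counts of a tumor together. Both are rows of the 7SL RNA, the scaffold of the signal recognition particle, and counting can split the reads of such near-identical copies, so the value of each row alone is uncertain.

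The levels of AC157822.1 were 40976, 45171 and 37749 CPM in tumors 1, 2 and 3, and those of AC099934.1 were 37516, 42509 and 34389.8 CPM. Next came mt-Rnr2, the large mitochondrial rRNA, at 33642, 29866 and 25878 CPM, and 7SK, which holds back the elongation factor P-TEFb, at 24106, 27352 and 24089 CPM. All 4 were lowest in tumor 3, and for 7SK tumor 1 was level with it. Mir5105 stood at 15319.7, 25078 and 18326 CPM, AC027184.1 on chromosome 14 at 15419.5, 16345 and 11646 CPM, and RNase_MRP, the RNA of an enzyme that cuts pre-rRNA, at 10667, 11625 and 10284 CPM. The rows of 7SL, 7SK, AC027184.1, RNase MRP and the U1, U2 and U3 RNAs, 8 in all, took 15, 16.1 and 13.6% of the counts. Rows matched to protein-coding genes took 74.7, 73.2 and 77%, the 2 mitochondrial rRNAs 3.93, 3.59 and 3.05%, and rows annotated as pseudogenes 1.69, 1.74 and 1.92%. Tumor 3 thus had the smallest share of structural RNA and the largest share of mRNA, and all levels in CPM are relative to these totals. The 10 most abundant rows held 20.4 ± 1.89% of the counts (SD, n = 3).

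**Figure D1:**
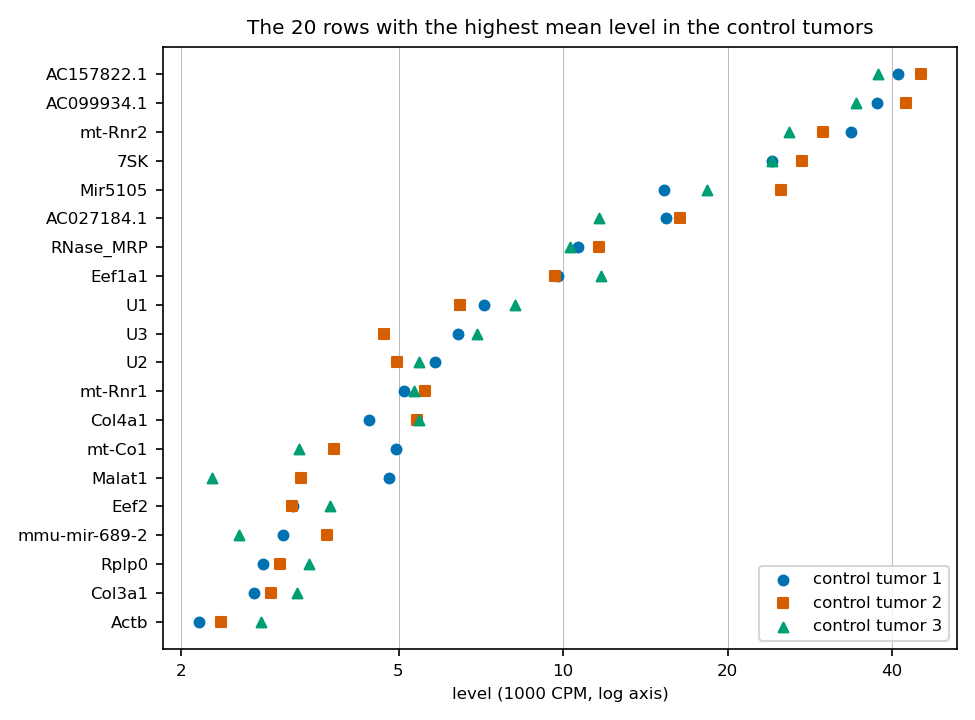
Level of the 20 rows with the highest mean, in units of 1000 CPM on a log axis, with 1 symbol for each control tumor. The 7SL rows AC157822.1 and AC099934.1 lead, Eef1a1 is the first protein-coding gene, and Malat1 ranges from 2275 CPM in tumor 3 to 4806 CPM in tumor 1.

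Among mRNAs the translation machinery and a basement membrane collagen led. By level per kb, Eef1a1, which brings aminoacyl-tRNA to the ribosome, was first of 21754 protein-coding genes with 4165 CPM per kb, at 9769, 9665 and 11712 CPM. The mitochondrial cytochrome oxidase gene mt-Co1 was second with 2602 CPM per kb, and the ribosomal stalk genes Rplp1 and Rplp0 were 3rd and 5th. Of 82 cytosolic ribosomal protein genes, 80 had at least 1 CPM in every tumor, against 57.4% of all protein-coding genes. As a group the 82 genes took 4.61, 4.59 and 5.52% of the counts. Col4a1, the main chain of collagen IV in basement membranes, had the second highest CPM of a protein-coding gene, with 4412, 5394 and 5445 CPM. Per kb it came 31st, with 746 CPM per kb, since its exons span more than those of the ribosomal genes. Col3a1, a collagen of loose connective tissue, stood at 2721, 2926 and 3262 CPM, and Actb, cytoplasmic actin, at 2157, 2365 and 2801 CPM. The 13 mRNAs of the mitochondrial genome went the other way across tumors, with 1.3, 0.99 and 0.868% of the counts. The noncoding RNA Malat1, which stays in the nucleus, stood at 4806, 3318 and 2275 CPM and was 2.11 times as high in tumor 1 as in tumor 3.

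The engineered Myc was among the high genes. Myc (chr15:61816946-61821929 on NCBIM37, plus strand) stood at 1108, 821 and 812 CPM, or 914 ± 169 CPM (SD, n = 3), with tumor 1 above the others. Its 336 CPM per kb placed it 96th of the 21754 protein-coding genes, whose median was 1.37 CPM per kb. Counts per gene do not separate the retroviral from the endogenous Myc. Mycn, the family member that is often amplified in other MBs, stood at 0.556, 1.14 and 0.306 CPM. Max, the partner of MYC, stood at 50.5, 52.2 and 57.8 CPM and Mga, a large MAX partner that opposes MYC, at 320.2, 306 and 298 CPM. Per kb, Myc was thus far above the other genes of the network, which lay between 0.164 CPM per kb for Mlxipl and 33.1 CPM per kb for Mxd4. Of the 13 genes of the MYC network, 11 had at least 1 CPM in every tumor, against 57.4% of all protein-coding genes.

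The target genes of MYC that were listed were all expressed at high levels. All 30 had at least 1 CPM in every tumor, against 57.4% of all protein-coding genes, with a median of 67.4 CPM per kb. Npm1, nucleophosmin of the nucleolus, stood at 1334, 1228 and 1662 CPM, and Ncl, nucleolin, at 1077, 992 and 1344 CPM. Odc1, which starts polyamine synthesis, stood at 222, 217 and 254 CPM and Cdk4, the partner of D cyclins, at 329, 359.7 and 451 CPM. Tumor 3 was highest in 27 of the 30 genes, although Myc itself was highest in tumor 1. Over all genes with a mean of at least 1 CPM tumor 3 was highest in 42.2%, and over those of at least 100 CPM, the range that holds the median of 169.6 CPM of this list, in 64.4%. Much of the table thus shared this order, and the scalings moved the share for genes of at least 100 CPM between 54.0% and 70.7%. None of the 30 genes had a 2-fold range between the highest and the lowest tumor, against 14.1% of all genes with a mean of at least 1 CPM and 3.01% of those of at least 100 CPM, so a count of 0 is near the share at this level.

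The same order held for cell division genes. All 32 were expressed, against 57.4% of all protein-coding genes, with medians of 27.5 CPM per kb and 110.9 CPM. In 31 of them tumor 3 was highest. Tumor 3 was highest in 64.4% of all genes of at least 100 CPM and in 48.1% of those of 10 to 100 CPM. Mki67, the proliferation marker Ki-67, stood at 838, 693 and 923 CPM, and Top2a, which untangles replicated DNA, at 563, 571 and 706 CPM. Pcna, the sliding clamp of DNA polymerase, stood at 123, 136 and 177 CPM and Ccnb1, cyclin B1, at 99.1, 102 and 145 CPM. The summed level of the list was 4427, 4396 and 5581 CPM. Replication-dependent histone genes, whose mRNAs are made in S phase, took 0.815, 1.16 and 1.56% of the counts, also the largest share in tumor 3. Here too no member had a 2-fold range. Among all genes of 10 to 100 CPM 5.22% had one, and among those of at least 100 CPM 3.01%. A list of 32 genes without any is thus near these shares. With mitochondrial and small RNA rows left out of the totals, tumor 3 was highest in 31 of the 32 genes, and under the other scalings in 29 to 31. Tumor 3 also had the smallest share of structural RNA, and how that share relates to this order was not tested.

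The 2 genes deleted in the donor mice still had counts. Trp53 stood at 53.8, 45 and 46.2 CPM and Cdkn2c, which encodes the CDK inhibitor p18, at 15.5, 15.8 and 17.4 CPM, with CVs of 9.88% and 6.32%. A count per gene does not show which exons the reads came from, so these values do not test the deletions, and host cells, which carry both genes, were not separated. Among neighbours of the p53 pathway, Cdkn2a, which encodes p16 and p19ARF, stood at 59.9, 62.1 and 78.1 CPM. It had 57 CPM per kb, against 5.63 CPM per kb for Cdkn1a, the p53 target p21. Cdkn1a stood at 11.9, 16 and 9.62 CPM, and Mdm2, which degrades p53 and is also its target, at 46.1, 43 and 41.1 CPM. Cdkn1c, an imprinted CDK inhibitor, was the highest of the 18 genes of this axis with 150.4, 124 and 152 CPM and 73.6 CPM per kb. Of these 18 genes, 17 were expressed, against 57.4% of all protein-coding genes. The exception was Pmaip1, the p53 target NOXA, at 0.917, 0.858 and 0.551 CPM.

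The label of G3 was checked against genes of that subgroup, and the defining genes went against it. Of the 6 defining genes Npr3, Gabra5, Impg2, Nrl, Crx and Otx2, only Npr3 and Gabra5 had at least 1 CPM in every tumor, and none reached the median of protein-coding genes per kb. Npr3, a clearance receptor for natriuretic peptides, stood at 4.94, 6.27 and 9.83 CPM, and Gabra5, a GABA receptor subunit, at 1.19, 2.05 and 1.07 CPM. Otx2 stood at 0.306, 0.119 and 0.0919 CPM. Crx, the photoreceptor homeobox factor, had 1, 0 and 1 counts, and Nrl, which specifies rods, had 0, 1 and 0 counts, so both were at or under the floor in every tumor. Of the 17 measured genes of the list, 5 were expressed, against 57.4% of all protein-coding genes, and 6 were at or under the floor in all 3 tumors. The median was 0.0921 CPM per kb, and the 2 highest members were Myc and Smarcd3, a chromatin remodeling subunit, at 30.8, 32.6 and 39.6 CPM. The tumors are therefore called by their label, control, and not by the subgroup.

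Group 4 genes were low as well. Of the 11 measured genes of the list, 4 were expressed, against 57.4% of all protein-coding genes. The median was 0.317 CPM per kb against 1.37 for protein-coding genes. Kcna1, a potassium channel, was the only one of 4 defining genes with at least 1 CPM in every tumor, at 21.8, 8.49 and 3.34 CPM. Eomes, a T-box factor of unipolar brush cells, stood at 0.0833, 2.48 and 0.0613 CPM and was thus above 1 CPM in tumor 2 only. Lmx1a, a homeobox factor of the rhombic lip, stood at 1.67, 0.834 and 0.95 CPM and Khdrbs2 at 0.722, 0.358 and 0.214 CPM.

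Ptch1, Gli1 and Hhip of the hedgehog pathway were high in all 3 tumors. In this pathway the ligand binds the receptor PTCH1, which frees SMO to activate the GLI factors, and GLI raises Gli1, Ptch1 and Hhip. Ptch1 (chr13:63610261-63674474 on NCBIM37, minus strand) stood at 1481, 1645 and 1612 CPM, or 1579.6 ± 86.7 CPM (SD, n = 3). Its 240.2 CPM per kb ranked 147th of the protein-coding genes. Gli1 stood at 553, 607 and 532 CPM, with 149 CPM per kb. Hhip, which binds the ligand at the cell surface, stood at 367, 381 and 438 CPM. The CVs of these 3 genes lay between 5.49% and 9.51%. The median CV was 12.9% over all genes with a mean of at least 1 CPM and 10.2% over those of at least 100 CPM, the level of these genes.

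Transducers of the pathway were present and its ligand was not detected above the floor. Smo stood at 89.6, 110.3 and 107 CPM and Sufu, which restrains GLI, at 147, 148 and 166 CPM. Gli2 stood at 131, 74.7 and 78.4 CPM and Gli3, mainly a repressor, at 11.7, 8.18 and 6 CPM. The coreceptors Boc and Cdon stood at 36.2, 32.9 and 37.4 CPM and 18.7, 20.04 and 25.1 CPM. Shh had 0, 2 and 1 counts, all at or under 3, and Atoh1, the factor of GNPs, had 0 counts in each tumor, which allows up to 0.0919 CPM in the shallowest tumor. Of the 17 genes of the list, 14 were expressed, against 57.4% of protein-coding genes, with a median of 6.75 CPM per kb. The list was thus above the 1.37 CPM per kb of all protein-coding genes, while the Group 3 list was below it. The median of the protein-coding genes with at least 1 CPM in every tumor was 6.89 CPM per kb, near that of the hedgehog list. By tumor, the median of the hedgehog list was 3.93, 7.38 and 7.61 CPM per kb, lowest in tumor 1.

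Genes of the WNT subgroup lay far apart in level. Ctnnb1, which encodes β-catenin, stood at 1277, 1318 and 1478 CPM, or 266 CPM per kb, and Wif1, a secreted WNT inhibitor, at 119, 117 and 139 CPM. Axin2, the usual readout of β-catenin activity, stood at 11.9, 8.29 and 8.24 CPM, Nkd1, a feedback inhibitor of the pathway, at 4.83, 5.48 and 5.67 CPM and Lef1, a DNA-binding partner of β-catenin, at 2.81, 3.05 and 2.6 CPM. Per kb, Wif1 with 51.6 was far above Axin2 with 1.72 and Lef1 with 0.326. Of 16 genes, 9 were expressed, a share near the 57.4% of all protein-coding genes, and the median was 0.355 CPM per kb against 1.37 for protein-coding genes.

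**Figure D2:**
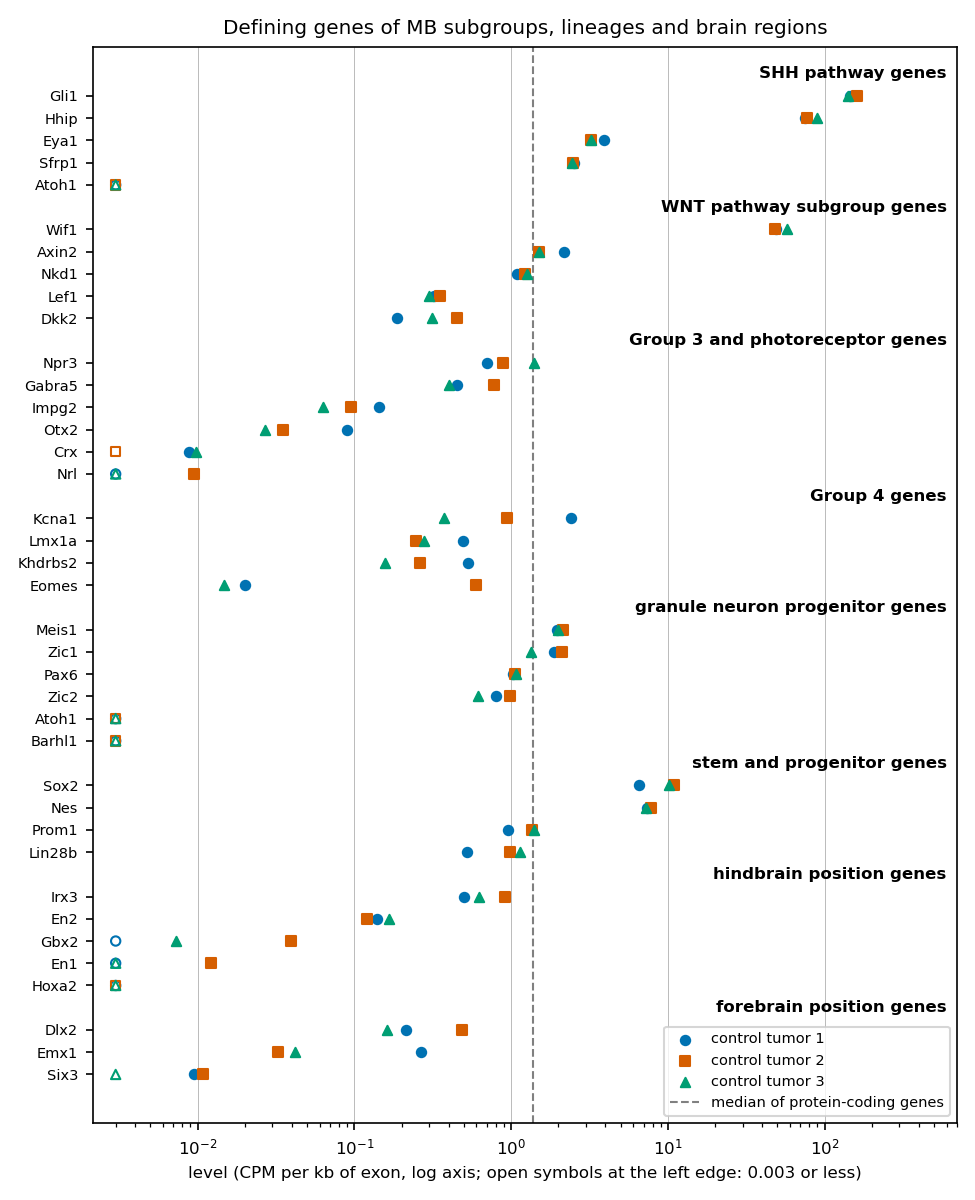
Level per kb of exon of defining genes of 8 lists, in CPM per kb on a log axis, with 1 symbol for each control tumor and a dashed line at 1.37 CPM per kb, the median of protein-coding genes. Open symbols at the left edge are values of 0.003 or less. Gli1, Hhip and Wif1 lie right of 30 CPM per kb, whereas every photoreceptor and Group 4 gene has a mean below the dashed line.

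Genes of the cell of origin were mixed, with some expressed and others at 0 counts. Of the 6 defining genes of GNPs, Meis1 stood at 14.5, 15.8 and 14.7 CPM, Pax6 at 20.5, 21 and 21.2 CPM, Zic1 at 10.7, 12.1 and 7.63 CPM and Zic2 at 3.33, 4.15 and 2.57 CPM, while Atoh1 and Barhl1 had 0 counts in every tumor. Meis1, Pax6, Zic1 and Zic2 are factors of the granule lineage that other neural cells also use. Of the 24 genes of the list, 12 were expressed, a share near the 57.4% of all protein-coding genes, with a median of 0.221 CPM per kb. The highest were not specific to the lineage. Ccnd2, a D cyclin, stood at 421, 286 and 319 CPM, Sox4 at 143, 205 and 217 CPM and Sox11 at 52.6, 60.1 and 63.5 CPM. The mature granule neuron genes Gabra6 and Cbln3 stood at 0.194, 0 and 0 CPM and 1.08, 0.143 and 0.153 CPM. Pcp2, a Purkinje cell gene, and Ptf1a, a factor of inhibitory precursors, were at or under 5 counts in every tumor.

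Most genes that mark a position in the hindbrain were near the floor. Of 20 hindbrain genes only Irx2, Irx5 and Irx3 were expressed, against 57.4% of all protein-coding genes. In every tumor 12 of the 20 were at or under the floor, and Irx2 stood at 5, 5.46 and 4.81 CPM. En1 and En2, the engrailed factors of midbrain and cerebellum, stood at 0, 0.0477 and 0 CPM and 0.694, 0.596 and 0.827 CPM, and Hoxa2 had 0 counts. Of 16 forebrain genes, 6 were expressed, also below that share, and of the 4 defining ones 1 was. The median of the forebrain list was 0.248 CPM per kb, against 1.37 for protein-coding genes. Bcl11b, a zinc finger factor of cortical and striatal neurons that is not a defining gene, stood at 62.1, 43 and 39.4 CPM. The implants lay in the cortex, so that host cells carry forebrain genes, and host and tumor RNA were not separated here.

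Stem and progenitor genes were mostly expressed. Sox2, a factor of neural stem cells, stood at 16.1, 26.7 and 24.8 CPM, Nes, the intermediate filament nestin, at 47.3, 49.98 and 46.3 CPM, and Prom1, which encodes CD133, at 4.31, 6.1 and 6.34 CPM. Sox9, a factor of glial and stem cells, stood at 183, 158 and 168 CPM and Vim, vimentin, at 275, 401 and 356 CPM. Vim was the highest of the list per kb, with 147 CPM per kb, followed by Hmga1, a chromatin protein, with 96. Fetal genes were present, with Lin28b, which blocks let-7, at 4.72, 8.89 and 10.3 CPM, and the RNA-binding proteins Igf2bp1 at 18.3, 45.2 and 42.5 CPM, Igf2bp2 at 6.39, 19.4 and 13.2 CPM and Igf2bp3 at 29.2, 67.7 and 91.2 CPM. In each of these 4 genes tumor 1 was the lowest. Lin28a had 3, 0 and 0 counts and Nanog 2, 5 and 5, so the pluripotency genes were near the floor. Of 28 genes, 20 were expressed, against 57.4% of protein-coding genes, and 5 were at least 2-fold below the mean of the other 2 tumors in tumor 1, against 2.24% of all genes with a mean of at least 1 CPM.

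The tumors were alike over most genes. Over 14499 genes with a mean of at least 1 CPM, Pearson correlations of log2 CPM (prior count 2) across genes were 0.963 between tumors 1 and 2, 0.956 between tumors 1 and 3, and 0.979 between tumors 2 and 3. Genes are not independent replicates, so these values are a description. The median CV was 12.9%, and it lay at 24.3% for genes of 1 to 10 CPM and at 10.2% for genes of at least 100 CPM. The common biological coefficient of variation, which leaves out counting error, was 25.3% by edgeR. The chi-square of their counts lay between 34.3 and 50.2 for each degree of freedom, so no library was counted as a copy of another.

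A 2-fold range between the highest and the lowest tumor was found in 2038 of the 14499 genes, or 14.1%. It was found in 33.0% of genes of 1 to 10 CPM, in 5.22% of genes of 10 to 100 CPM and in 3.01% of those above. Tumor 1 stood at least 2-fold above the mean of the other 2 in 805 genes (5.55%) and at least 2-fold below it in 325 (2.24%). Tumor 2 was above in 273 genes (1.88%) and below in 343 (2.37%), and tumor 3 was above in 113 (0.779%) and below in 935 (6.45%). Tumors 2 and 3 were thus the closest pair, with 792 genes 2-fold apart, against 1518 between tumors 1 and 3. The count with a 2-fold range was 747 without tumor 1, 1533 without tumor 2 and 1161 without tumor 3. A range over 2 tumors cannot be wider than over 3, so a lower count was likely whichever tumor was left out. The biological coefficient of variation was 19.5, 29.2 and 25.3% without tumors 1, 2 and 3.

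**Figure D3:**
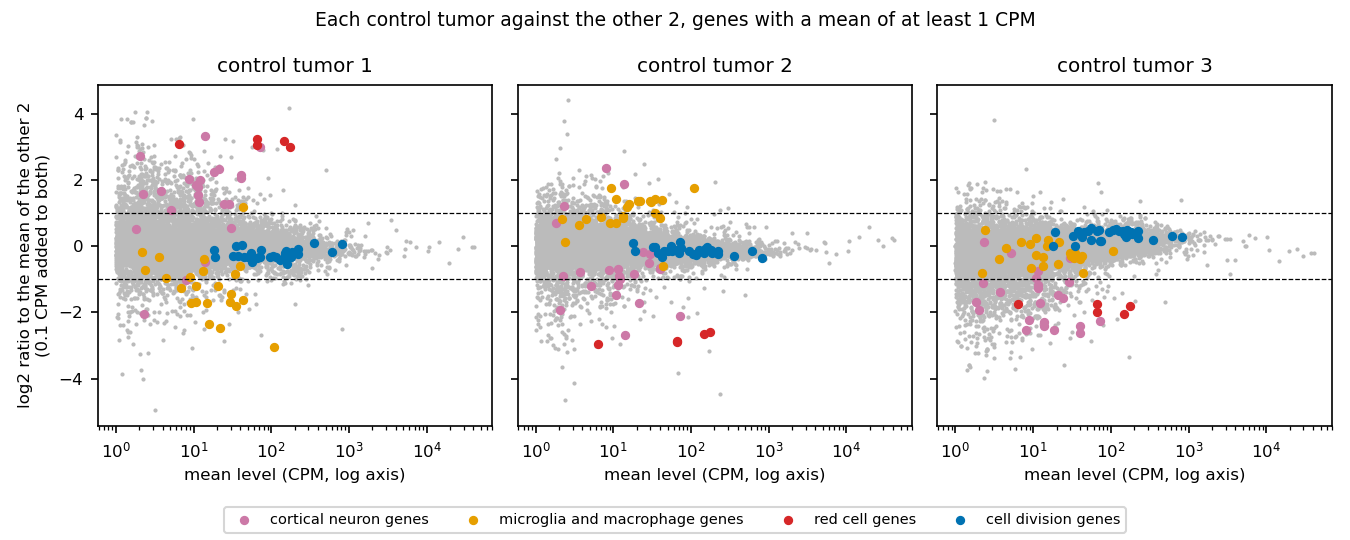
Each control tumor against the mean of the other 2, as a log2 ratio with 0.1 CPM added to both, over the mean level in CPM on a log axis, for the 14499 genes with a mean of at least 1 CPM. Dashed lines mark a 2-fold difference. Cortical neuron and red cell genes lie above the upper line mostly in tumor 1, microglia and macrophage genes mostly in tumor 2, and cell division genes stay between the lines in all 3 panels.

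Genes of neurons, red cells and macrophages were among those that varied most between the tumors. The tumors were taken as chunks from the brain, and in bulk RNA fewer cells of a type and less RNA per cell cannot be told apart. Tumor 1 was high in cortical neuron genes, for which 18 of 23 measured at a mean of at least 1 CPM were at least 2-fold above the mean of the other 2 tumors, against 5.55% of all genes. Tumor 1 was highest in 19 of the 23, against 33.6% of all genes. The summed level of this list was 753, 274 and 161 CPM. Camk2a, a kinase of excitatory synapses, stood at 172, 22.3 and 20.3 CPM, and Nrgn, neurogranin, at 35.3, 2.96 and 3.83 CPM. Slc17a7, the vesicular glutamate transporter, stood at 45.7, 8.27 and 9.62 CPM. Tumor 3 was at least 2-fold below each of the other tumors in 8 of the 23 genes, against 2.72% of all genes, with Snap25 of the synaptic fusion complex at 83.8, 28.6 and 9.04 CPM. Inhibitory neuron genes followed another order, with Gad1, which makes GABA, at 11.1, 27.1 and 3.52 CPM and Gad2 at 4.78, 17.5 and 1.87 CPM, both highest in tumor 2.

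Among protein-coding genes with a mean of at least 10 CPM, Fat2 had the highest ratio of tumor 1 to the others. This atypical cadherin of cerebellar granule neurons stood at 462, 27 and 24.1 CPM, so tumor 1 was 18 times the mean of the others. The other defining genes of mature granule neurons were lower per kb and also highest in tumor 1, with Rbfox3, the neuronal antigen NeuN, at 21.9, 6.24 and 6.22 CPM. Among the 15 protein-coding genes with the widest range at a mean of at least 10 CPM were Snhg11, a noncoding host of small nucleolar RNAs that is annotated as protein-coding here, at 62.4, 10.1 and 2.91 CPM, and Atp2b2, a neuronal calcium pump, at 68.9, 15.1 and 6.13 CPM. Camk2n1, an inhibitor of CaMKII, stood at 78.9, 9.96 and 7.23 CPM. The neuronal genes Faim2 and Phyhip were also highest in tumor 1, with ranges of 10.5 and 9.02 times.

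Red cell genes were also highest in tumor 1. The globin genes Hbb-b1, Hba-a1, Hba-a2 and Hbb-b2 of red cells stood at 424, 40.5 and 65.9 CPM, 358, 32.1 and 47.3 CPM, 164, 12.5 and 22.2 CPM and 161, 12.8 and 26 CPM, so tumors 2 and 3 were close to each other and tumor 1 far above. These genes are near-identical pairs whose reads can be shared between them. Alas2, the heme synthesis enzyme of red cell precursors, stood at 15.8, 1.1 and 2.45 CPM. All 5 red cell genes with a mean of at least 1 CPM had a 2-fold range, against 14.1% of all genes.

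Microglia and macrophage genes led in tumor 2. Of 24 genes, 23 were expressed, against 57.4% of all protein-coding genes. Of the 23 with a mean of at least 1 CPM tumor 2 was highest in 21, against 24.2% of all genes. In 12 of these 23 it was at least 2-fold above the mean of the other 2 tumors, against 1.88% of all genes. Their summed level was 278, 831 and 464 CPM. Lyz2, lysozyme, stood at 18.3, 204 and 101 CPM, C1qa, of the complement starter C1q, at 17.9, 73.2 and 37.5 CPM, and Csf1r, the receptor that macrophages need to survive, at 22.2, 51.2 and 28.6 CPM. The macrophage gene Mrc1 stood at 5.39, 37.1 and 23.1 CPM and the microglial receptor P2ry12 at 2.03, 3.12 and 1.44 CPM. Per kb, Mrc1 with 3.67 was above P2ry12 with 0.923, which compares 2 genes and not 2 cell types. Tmem119, also used as a microglial marker, went against the list, with 69.3, 32.7 and 28.8 CPM and tumor 1 as the highest. Aif1, a further defining gene of the list, stood at 1.64, 2.55 and 2.97 CPM, highest in tumor 3. The 5 protein-coding genes of at least 10 CPM with the highest ratio of tumor 2 to the others included Gpnmb, Apoe and Plin2, which lipid-laden macrophages express among other cells. Gpnmb stood at 4.78, 55.2 and 14.9 CPM, Apoe at 78.9, 398 and 127 CPM and Plin2 at 12.5, 74.8 and 24.1 CPM. The remaining 2 were Scg2, a granin of secretory vesicles, at 3.28, 32.6 and 5.48 CPM, and Ptgds, which makes prostaglandin D2 in the meninges, at 10.8, 39.6 and 6.71 CPM.

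Lymphocyte genes were close to the floor, in a host that lacks a thymus. Of 12 T cell genes none had 1 CPM in every tumor, against 57.4% of all protein-coding genes. In all 3 tumors 7 were at or under 3 counts. The defining genes Cd3d, Cd3e, Cd3g and Cd8a had at most 2 counts in any tumor. The T cell list summed to 1.31, 1.57 and 1.19 CPM and the NK cell list to 0.278, 2.65 and 0.674 CPM. B cell genes were low but above the floor, with Cd79a, of the B cell receptor, at 4.36, 1.6 and 3.74 CPM and Ighm at 3.81, 1.17 and 2.94 CPM. The neutrophil genes S100a9 and S100a8 stood at 2.17, 1.14 and 0.306 CPM and 1.56, 0.524 and 0 CPM, highest in tumor 1, as the globins were.

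Most vessel genes were expressed. Of 20 endothelial genes, 19 were expressed and 1 had a 2-fold range, and of 12 pericyte and smooth muscle genes 10 were expressed and 0 had one. Of all protein-coding genes 57.4% were expressed. The lists have medians of 11.1 and 11.2 CPM and so hold genes on both sides of 10 CPM. Among all genes of 10 to 100 CPM 5.22% had a 2-fold range, and among those of 1 to 10 CPM 33.0%. No single share of genes with a 2-fold range fits these lists, so those counts are given as a description only. The gene with that range among the endothelial genes was Slco1a4, a transporter of the blood-brain barrier, at 3.17, 2.74 and 1.13 CPM. Cdh5, VE-cadherin, stood at 31.2, 39.3 and 36.5 CPM, and Pecam1 at 16.3, 19.4 and 17.1 CPM. Pdgfrb, the PDGF receptor of pericytes, stood at 119, 95.7 and 103 CPM and Rgs5 at 56.2, 60.3 and 49.7 CPM. Tumor 2 was highest in 16 of 19 endothelial genes, and in none of them was it 2-fold above the mean of the other 2. It was highest in 24.2% of all genes, in 21.6% of those of 10 to 100 CPM and in 34.2% of those of 1 to 10 CPM.

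**Figure D4:**
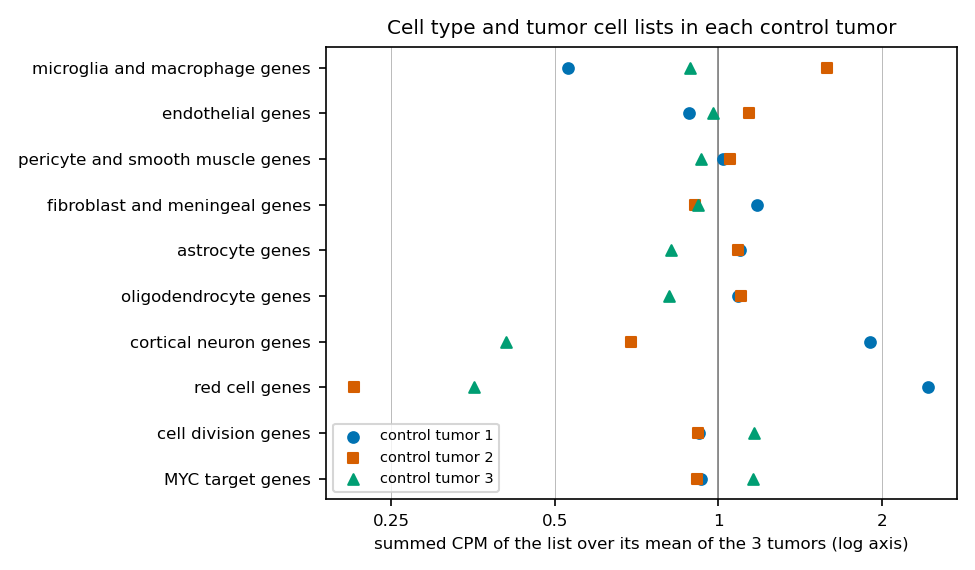
Summed CPM of 10 gene lists in each control tumor, divided by the mean of the 3 tumors, on a log axis. Cortical neuron and red cell genes are highest in tumor 1, microglia and macrophage genes in tumor 2, and cell division and MYC target genes in tumor 3, the last by small margins.

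Collagen I was highest in tumor 1. Col1a1 stood at 1071, 228 and 202 CPM and Col1a2, the second chain of collagen I, at 186, 39.9 and 49.6 CPM, so tumor 1 was more than 3-fold above both others for each. Col3a1 showed no such difference, and neither did Col6a1, with 412, 279 and 351 CPM. The fibroblast proteoglycans Dcn and Lum, which are defining genes of that list, stood at 3.78, 12.6 and 10.5 CPM and 3.22, 4.72 and 6.53 CPM, lowest in tumor 1. All 43 collagen genes together took 1.39, 1.36 and 1.39% of the counts, almost the same share in each tumor.

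Several glial genes were high. The astrocyte gene Gfap stood at 87.1, 170.2 and 106 CPM, Aqp4, a water channel of astrocyte endfeet, at 26.1, 45.4 and 37.2 CPM, and Gja1, connexin 43, at 118, 126 and 145 CPM. Aldh1l1 stood at 8.78, 7.65 and 2.88 CPM and the glutamate transporter Slc1a2 at 333, 195 and 84.6 CPM, both lowest in tumor 3. The astrocyte list summed to 1449, 1438 and 1082 CPM. Among oligodendrocyte genes, Mbp of myelin stood at 135, 149 and 47.9 CPM and Mobp at 65, 55.2 and 15.1 CPM, with 7 of 15 genes at least 2-fold below the mean of the other 2 in tumor 3, against 6.45% of all genes. The precursor factors Olig1, Olig2 and Sox10 stood at 10.7, 35 and 16.4 CPM, 3.72, 11.1 and 7.38 CPM and 4.08, 11.2 and 6.25 CPM, each highest in tumor 2. Cspg4, the NG2 proteoglycan of glial precursors and pericytes, was far above them at 532, 502 and 513 CPM and hardly varied, with a CV of 2.93%. Per kb, Cspg4 with 64 CPM per kb exceeded Mbp with 13.2. Whether tumor or host cells carried these glial genes was not tested.

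Muscle genes were near the floor. The skeletal muscle list summed to 7.56, 7.46 and 5.02 CPM, with the defining genes Ckm, Myh4, Myod1 and Acta1 below 1 CPM in each tumor. Choroid plexus and ependymal genes were low, with Ttr, which carries thyroid hormone, at 7.11, 1.84 and 0.46 CPM. Y-linked genes and Xist were both present in each tumor, with the Y-linked Ddx3y at 86.7, 56.6 and 70.2 CPM and the X-inactivation RNA Xist at 106, 87.1 and 39.7 CPM. The further Y-linked genes Uty, Kdm5d and Eif2s3y were expressed in all 3 tumors too.

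Some genes had nearly the same level in all 3 tumors. Among 9214 protein-coding genes with a mean of at least 10 CPM, Plekha3, a lipid-binding Golgi protein, stood at 25.5, 25.6 and 25.5 CPM, with a CV of 0.0977%. Btaf1, which removes TBP from DNA, stood at 111, 110.5 and 110.3 CPM, and Med19, a Mediator subunit, at 27.9, 27.8 and 28 CPM. With 3 tumors and 9214 genes, the smallest CVs are picked from the low end of the sampling spread. By comparison, the usual reference genes Gapdh and Actb had CVs of 22.6% and 13.5%, and Tbp, of the basal transcription machinery, had 10.7%. Gapdh stood at 372, 288 and 456 CPM and Tbp at 37.3, 30.4 and 32.3 CPM.

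Genes at least 2-fold above the mean of the other 2 were fewest in tumor 3, with the 113 given above. Among protein-coding genes of at least 10 CPM, the row of Lars2, the mitochondrial leucyl-tRNA synthetase, had the highest ratio of tumor 3 to the others. It was at the same time among the lowest in tumor 1, with 195, 849.6 and 1366 CPM. Whether all counts of this row came from Lars2 mRNA was not tested, so they are not read as a level of the enzyme's mRNA. The histone genes Hist1h2al and Hist1h2be stood at 38.8, 49 and 91.2 CPM and 163, 198 and 348 CPM, and Gm8730 at 68.2, 48.7 and 115 CPM. Igf2bp3 was the remaining one of the 5. Among the 5 genes lowest in tumor 3, Arpp21, a striatal and cortical phosphoprotein, stood at 26, 20.4 and 3 CPM, so tumors 1 and 2 were both far above it.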

How the data were processed

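The authors mapped the reads of 7 tumors to NCBIM37 (mm9), counted them per gene with HTSeq on a GENCODE annotation, and deposited the raw counts without normalization. The submitters' processing notes also name CASAVA 1.7, STAR and BWA. The labels name the TruSeq RNA Library Preparation Kit v2, the paper total stranded RNA-seq, and the strand setting of the counting is not given in the sources used here. From these counts, CPM were computed on library sizes scaled by TMM (edgeR 4.0.16, R 4.3.3) over the 17389 genes passing filterByExpr in all 7 tumors. Of 34592 rows, 33606 (97.1%) matched GENCODE vM1 by identifier and 17 by name, which gave positions and exon lengths. The other rows, pooled RNA families among them, held 5.40 ± 0.0543% of the counts (SD, n = 3). Overlapping and near-identical genes may share reads. No test between tumors was run, because 1 group is described. The code for the spread was tested on simulated data.

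The 3 tumors and the gene lists were chosen with earlier results of these data known, and 3 of the 34 lists (basement membrane, imprinted and glial progenitor genes) after their values were seen. Of 572 listed symbols, 6 had no row and 2 were found under an older name. Genes named were Myc, Trp53, Cdkn2c and Wdr11, the 20 rows highest in CPM, the 20 protein-coding genes (exons of at least 300 bases) highest in CPM per kb, the defining and 3 highest genes of each list, the 15 widest and 10 steadiest protein-coding genes of at least 10 CPM, and the 5 highest and 5 lowest of each tumor. Other members of the lists, and classes such as histones, were chosen after their values were seen. Some listed genes are not reported here by name. Alternatives were other scalings (DESeq2 1.42.0 among them), other filters, and leaving out each tumor.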

Additional observations from a re-analysis of the deposited data

How the results depend on the processing

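Scaling by TMM over the 3 control tumors, by library size alone or by DESeq2's size factors moved none of the counts of genes by over 1.5 times and none of the 34 list medians beyond the spread between tumors, and 21 of the 34 lists were above the median of protein-coding genes per kb under each of these scalings and without each tumor in turn. Under these scalings the levels of the named genes were 0.977 to 1.04 times those given. Without mitochondrial and small RNA rows the 10 most abundant genes held 4.87% of the counts, against 20.4%, and levels of the named genes were 1.30 to 1.33 times as high. Leaving out those rows moved 17 of the 34 list medians beyond the spread between tumors, and leaving out tumor 3 moved 1. Counting genes with a count in any tumor gave 23591 genes, against 13726 expressed. The count of genes with a 2-fold range, 2038, was 5780 with no filter and a prior count of 2, and 467 at a mean of at least 10 CPM. Without each tumor in turn it ranged from 747 to 1533. The median CV, 12.9%, was 10.4% at a mean of at least 10 CPM and 22.7% over any gene with a count, and ranged from 9.58% to 12.8% without each tumor. The lowest correlation, 0.956, was 0.981 with no filter and 0.969 by Spearman, and ranged from 0.955 to 0.978 without each tumor. The biological coefficient of variation, 25.3%, ranged from 19.5% to 29.2% without each tumor. The causes were not tested beyond what the filters themselves remove. Added after seeing the data, leaving out the genes of the host cell lists gave 1960 genes with a 2-fold range and a biological coefficient of variation of 24.7%.

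No paired analysis was possible because the report compares no groups. With 3 tumors of 1 line, the spread is that between these tumors and not between lines. The deposited counts do not separate host from tumor RNA, retroviral from endogenous Myc, or the deleted from the retained exons of Trp53 and Cdkn2c. A gene at 0 counts was limited only to 0.0919 CPM in the shallowest tumor.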

Other observations

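Basement membrane and imprinted genes were prominent among the abundant mRNAs and were listed after their values had been seen, so their levels are a description only. Of 25 basement membrane genes, 20 had at least 1 CPM in every control tumor, against 57.4% of all protein-coding genes. Their median was 13.6 CPM per kb against 1.37 for all protein-coding genes. Col4a2, the second chain of the common collagen IV, stood at 1986, 2297 and 2261 CPM, the laminin chain Lamc3 at 354, 448 and 436 CPM and perlecan, encoded by Hspg2, at 482, 426 and 424 CPM. The other collagen IV chains were low, with Col4a3 at 0.361, 0.381 and 0.276 CPM and Col4a5 at 1.06, 6.29 and 5.09 CPM. Of the 22 genes with a mean of at least 1 CPM, tumor 1 was highest in 8, tumor 2 in 6 and tumor 3 in 8. Over all genes at that mean the shares were 33.6, 24.2 and 42.2%, so these counts are near them. The tumorspheres had been implanted in Matrigel, which is itself a basement membrane extract, and its relation to these mRNA levels was not tested.

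Of 26 measured imprinted genes, 25 were expressed, against 57.4% of all protein-coding genes, with a median of 8.42 CPM per kb. Igf2, a fetal growth factor, stood at 2331, 1561 and 1326 CPM, and its noncoding neighbour H19 at 971, 1167 and 1189.6 CPM, so Igf2 was highest and H19 lowest in tumor 1. Peg3, a zinc finger gene expressed from the paternal allele, stood at 1230.1, 969.5 and 1038 CPM and Grb10, an adaptor of the insulin receptor, at 751, 765 and 779.9 CPM. Meg3, a noncoding RNA of the Dlk1 locus, stood at 135, 22.5 and 10.8 CPM and followed the order of the neuronal genes. Alleles were not resolved, so these values say nothing about imprinting.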
